A study of Mus musculus with 4 samples.

Results

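The 35 genes described here encode the proteins that copy DNA in S phase and those that open and supply that phase. They were chosen by name, and every probe set of the array whose platform gene symbol is one of them was taken. This gave 75 of 45037 probe sets, for 34 of the 35 genes and of 18193 named genes in all; the 35th, Chaf1a, had no probe set of its own symbol. RNA came from subclones of 36-65, a mouse hybridoma, which is a fusion of a B cell and a myeloma cell that grows and secretes antibody. In class switching such a cell replaces one heavy chain constant region with another, and the labels give the frequency of this in vitro. L25 and L27 switched at low frequency and H23 and H27 at high frequency, which the labels call spontaneous. All 4 grew in the same serum-containing medium, and the labels name no treatment, genetic change, time or culture density. Each subclone has 1 array, all come from 1 hybridoma, and no repeat culture is named, so the p-values rest on the spread among 4 arrays, 2 in each class.

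DNA replication begins when the origin recognition complex, with CDC6 and CDT1, loads rings of MCM2 to MCM7 onto DNA. CDC45 and the GINS complex then turn each ring into a working helicase, and polymerases copy both strands behind it, held on DNA by the sliding clamp PCNA, which the RFC complex opens and closes. Many of these genes are transcribed just before and during S phase under E2F transcription factors, so their combined RNA level is commonly read as a sign of how much of a culture is entering or passing through that phase.

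Promoter windows from RefSeq (GRCm38.p6, 250 bases before to 50 after each start) were found for 30 of the 35 genes. The words TTTGGCGC, TTTCGCGC, TTTCCCGC and TTTGCCGC, which E2F factors are known to bind, were searched on both strands; 2 words can overlap at the shared letters GCGC. At least 1 word stood in 12 of 34 windows (35.3%), each from a different gene, against 2.26% of all 32851 windows and 2.85% of 21263 windows of protein-coding genes. The windows of these genes were also richer in G and C, with a median of 60.7% against 52.7% in all windows and 56.3% in those of protein-coding genes. The letters CCAAT were found in 55.9% of the genes' windows, 37.4% of all and 38.2% of those of protein-coding genes. TTTGAA, the core of the CHR element of mitotic promoters, was found in 11.8%, 17.9% and 16.0%. Genes that read lower in both high switching subclones and the other genes both held E2F words, in 6 of 19 and 6 of 10 genes. A match is only a match of letters. A pair of promoters from each side is shown, 200 bases each, with the E2F words in capitals. Rfc3 and Mcm6 read lower in high switching subclones, and Mcm5 and Gins3 did not. They lie at chr5:151651201-151651400 (minus strand), chr1:128359706-128359905 (minus), chr8:75109309-75109508 (plus) and chr8:95633359-95633558 (plus). The Rfc3 stretch ends 8 bases after the start site and the others end at the base before it.
Rfc3: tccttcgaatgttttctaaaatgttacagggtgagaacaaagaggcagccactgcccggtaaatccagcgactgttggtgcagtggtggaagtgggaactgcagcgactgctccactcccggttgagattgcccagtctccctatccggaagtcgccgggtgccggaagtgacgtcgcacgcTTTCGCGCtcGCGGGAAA
Mcm6: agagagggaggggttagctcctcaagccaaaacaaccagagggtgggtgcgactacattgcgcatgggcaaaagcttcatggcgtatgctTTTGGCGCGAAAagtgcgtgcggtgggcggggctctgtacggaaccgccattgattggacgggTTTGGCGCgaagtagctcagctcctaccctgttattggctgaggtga
Mcm5: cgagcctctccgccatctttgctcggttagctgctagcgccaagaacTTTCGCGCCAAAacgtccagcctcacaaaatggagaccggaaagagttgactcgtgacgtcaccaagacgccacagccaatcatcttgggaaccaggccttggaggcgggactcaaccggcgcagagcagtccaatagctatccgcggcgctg
Gins3: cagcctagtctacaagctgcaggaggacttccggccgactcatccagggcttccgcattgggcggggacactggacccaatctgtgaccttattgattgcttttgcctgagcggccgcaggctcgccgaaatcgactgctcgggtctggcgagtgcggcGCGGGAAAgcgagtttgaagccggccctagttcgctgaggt
In Rfc3 one word lies just before the start site and another just after it. In both Mcm6 and Mcm5 a pair of words on opposite strands runs together at the shared letters, and Mcm6 has a further word downstream. Gins3 has a single word.

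The values are the authors' RMA intensities, taken to log2; a difference of 1 is a doubling. The median probe set read between 38.1 and 39.3 (linear) on the 4 arrays, and the small number of arrays limits the precision of all values. Markers of B cells and plasma cells were present, with 10 of 11 above the median probe set on all arrays and a median of 12.44 to 12.48 (log2); Cd79a was not, at 5.04 to 5.25. Some markers differed between classes (limma adjusted p under 0.05): Xbp1 (-0.71) and Tnfrsf17 (-0.71) fell and Cd79b (0.77) rose in high switching subclones, and of other cells' markers Itgam (-1.38) fell and Lum (1.21) rose. Of markers of other cells, 6 of 8 T cell, 4 of 9 myeloid, 2 to 3 of 7 fibroblast and 1 of 4 erythroid genes were above it. Their medians were 5.97 to 6.12, 4.92 to 5.07, 4.73 to 5.28 and 4.28 to 4.43, against 5.25 to 5.30 for the median probe set. The summed level of the T cell list was 10.18 and 10.26 in L25 and L27 and 9.78 and 10.04 in H23 and H27 (log2). That of the myeloid list was 10.34 and 10.51 against 10.71 and 10.58, that of the fibroblast list 7.77 and 7.67 against 8.04 and 7.98, and that of the erythroid list 7.16 and 7.15 against 7.24 and 7.28. Their part in the results was not tested. Of the 34 measured genes, 33 were above the median probe set on all arrays, Tyms being the exception.

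Replication genes read lower in high switching subclones, mostly by amounts too small to pass the test with 2 arrays a class. The median difference, high minus low, over the 34 genes was -0.39 on the log2 scale, against 0.01 over all genes and -0.05 over the 8222 genes with a mean of at least 7. For 26 genes the difference was below 0 (48.1% of all genes and 55.2% of those with a mean of at least 7) and for 8 above, and both high switching arrays lay below both low switching arrays for 21 and above them for 3. The corresponding shares of all genes were 24.9% and 26.5%, and of genes with a mean of at least 7 they were 37.1% and 28.2%. Only Rfc3 passed, on both of its probe sets: 2 of the 75 probe sets fell and 0 rose (limma, adjusted p under 0.05), where 3.59% of all probe sets passed and 2.10% fell. An unadjusted limma p under 0.05 was reached by 17 genes in the lower and 1 in the higher direction, against 12.1% and 10.8% of all genes, and 21.0% and 16.0% of those with a mean of at least 7. The shift was uneven between the high switching subclones, with a median of -0.21 for H23 and -0.53 for H27 against the same low switching mean, so without H27 the median is -0.21. The genes were listed with earlier results of these data known, and no test was made over the list. In RNA from a whole culture, fewer cells in S phase and less RNA in each cell cannot be told apart.

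**Figure D1:**
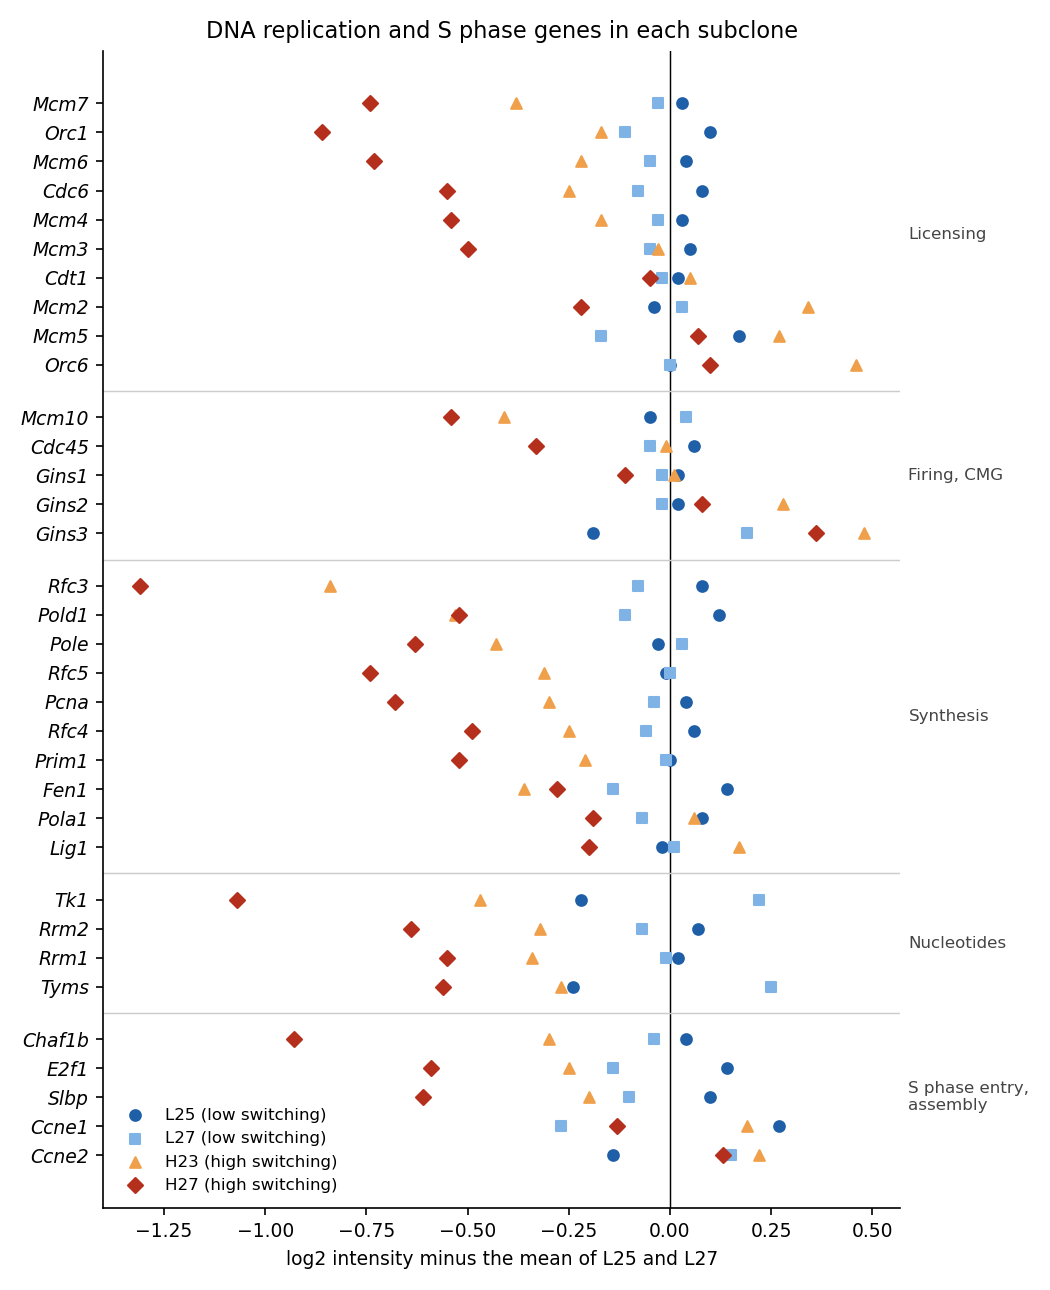
Log2 intensity of each of the 34 genes in each subclone (1 array a point), minus the mean of L25 and L27, grouped by role and sorted by the class difference. Blue points are low and orange and red points high switching subclones. H27 (red diamonds) is the lowest subclone for 26 genes, and Rfc3 lies farthest to the left.

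Among the genes that license origins, none passed, and the loading factors and ring subunits did not all read the same way. The ring subunit Mcm7 read 12.90 and 12.84 in L25 and L27 and 12.49 and 12.13 in H23 and H27, a difference of -0.56 ± 0.15 (SE; adjusted p = 0.108). All 4 arrays were in order by class without overlap, and all 4 Mcm7 probe sets gave differences between -0.56 and -0.44. Mcm6 read 12.77 and 12.68 against 12.51 and 12.00 (-0.47 ± 0.18), and Mcm4 read 11.43 and 11.37 against 11.23 and 10.86 (-0.36 ± 0.15). On the second Mcm4 probe set the classes overlapped, at 11.21 and 11.34 against 11.26 and 10.98 (-0.15 ± 0.14). For Mcm3 the level of H23, 11.47, lay between those of L25 (11.55) and L27 (11.45), and only H27 was apart, at 11.00 (-0.27 ± 0.17). Mcm2 and Mcm5 departed from this. Mcm2 was highest in H23, at 11.42, and lowest in H27, at 10.86, with 11.04 and 11.11 in the low switching subclones between them, and its difference of 0.06 had a 95% interval of -0.41 to 0.53. Mcm5 read 12.20 and 11.86 in the low and 12.30 and 12.10 in the high switching subclones, which overlap (0.18 ± 0.15). The estimates for the 6 ring subunits thus ran from -0.56 to 0.18, and whether they differ from each other was not tested.

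Of the factors that load the ring, Orc1, the ATPase of the origin recognition complex, read 8.58 and 8.37 in L25 and L27, 8.31 in H23 and 7.62 in H27 (-0.51 ± 0.23). Against the low switching mean H23 was at -0.17 and H27 at -0.86, so most of the difference lay in H27. Cdc6, the other loading ATPase, read 11.43 and 11.27 against 11.10 and 10.80 (-0.40 ± 0.14). Orc6, the smallest subunit of the recognition complex, ran the other way, with 10.01 in both low switching subclones, 10.47 in H23 and 10.11 in H27 (0.28 ± 0.15). Cdt1, the factor that delivers the ring and is destroyed once S phase starts, was nearly level on its brightest probe set, between 13.00 and 13.10. Its difference there was 0.00, with an interval of -0.26 to 0.27. A second bright Cdt1 probe set read 11.62 and 11.68 against 11.89 and 11.50 (0.04 ± 0.15), with H23 the highest and H27 the lowest array. None of these 4 passed, and the adjusted p-values of limma ran from 0.204 for Cdc6 to 0.997 for Cdt1.

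Of the helicase activators, 3 had a difference below 0 and 2 above. Mcm10, which helps the loaded helicase to start, read 10.35 and 10.44 in the low and 9.99 and 9.86 in the high switching subclones (-0.47 ± 0.11, limma adjusted p = 0.0864), without overlap and with H23 close to H27. Cdc45, the helicase cofactor, overlapped between classes (-0.17 ± 0.14), as did the GINS subunit Gins1, at 10.39 to 10.52 (-0.05 ± 0.11). The GINS subunits Gins2 and Gins3 had positive differences. Gins2 read 8.35 and 8.31 against 8.61 and 8.41 (0.18 ± 0.12), but on its second probe set the classes overlapped, at 8.24 and 8.37 against 8.65 and 8.19 (0.11 ± 0.17), with H27 the lowest array. Gins3 read 6.46 and 6.84 against 7.13 and 7.01 (0.42 ± 0.15), the only one of the 34 with an unadjusted limma p under 0.05 in the higher direction, and its second probe set gave 0.29. Neither passed after adjustment (0.508 and 0.217).

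**Figure D2:**
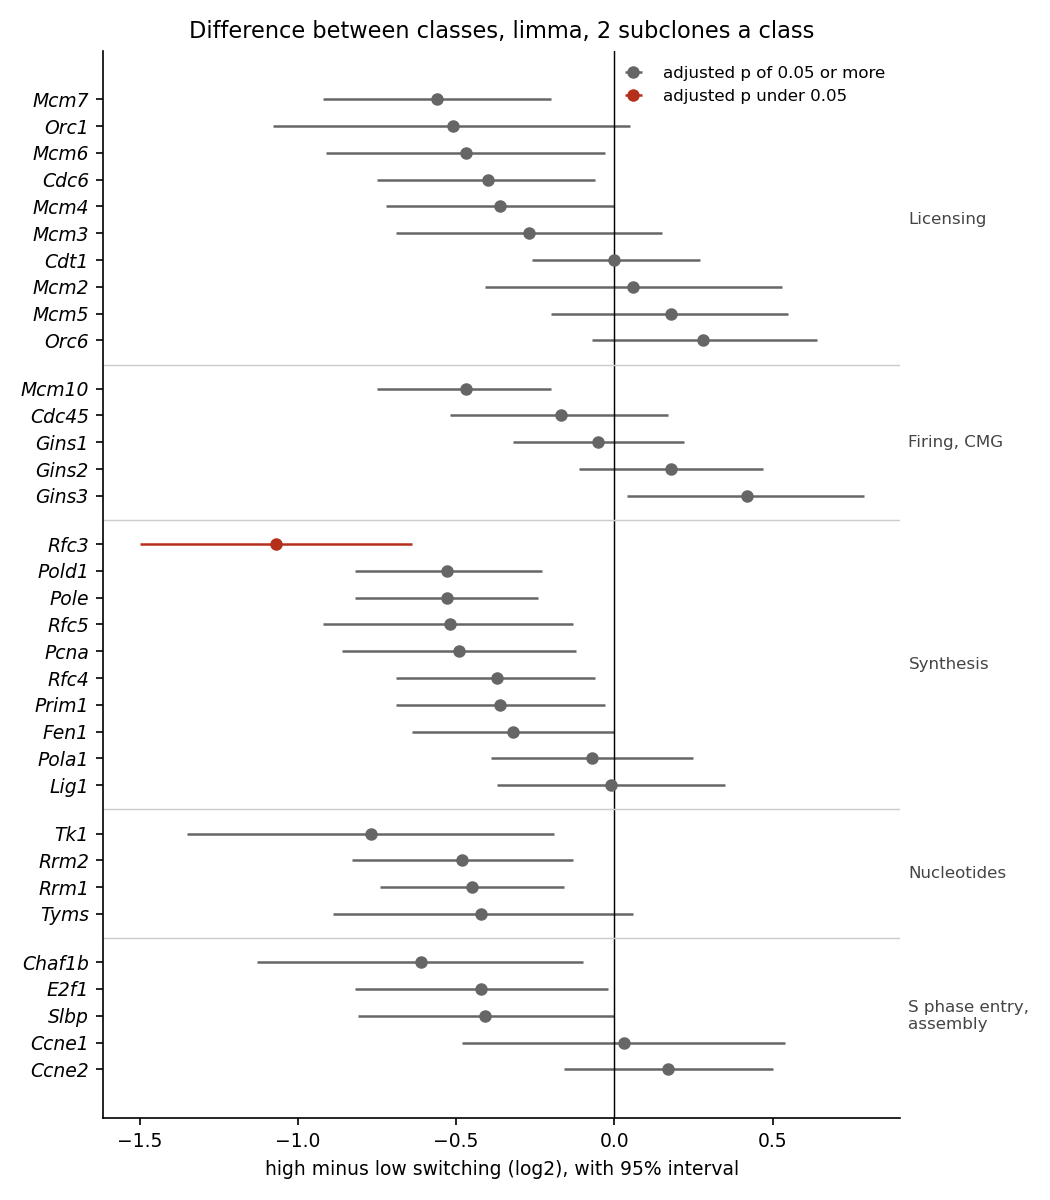
High minus low switching difference (log2) of each gene with its 95% interval from limma, 2 subclones a class, on the probe set with the highest mean. Rfc3, in red, is the only gene with an adjusted p under 0.05, at -1.07; most others lie to the left of 0 with intervals that come near or cross it.

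All 10 genes of DNA synthesis had a difference below 0 (48.1% of all genes and 55.2% of those with a mean of at least 7). Of the 10, 8 were lower without overlap (24.9% and 37.1%). Rfc3, a small subunit of the RFC clamp loader, read 9.59 and 9.43 in L25 and L27, 8.67 in H23 and 8.20 in H27. Both high switching subclones stood well below both low ones. This was a fall of 2.10-fold (-1.07 ± 0.18, SE; limma adjusted p = 0.0353), and the second probe set gave -1.05 (adjusted p = 0.0413). The call was lost without L25 (adjusted p = 0.167), without L27 (0.103) and without H27 (0.0781), where the difference was -0.99, -1.15 and -0.83; it held without H23 (0.0319, difference -1.30). The loader's other small subunits, Rfc5, Rfc4 and Rfc2, read lower by less than Rfc3 did, and none passed. Rfc5 went from 10.78 and 10.79 to 10.48 and 10.05 (-0.52 ± 0.16, limma adjusted p = 0.157). Rfc4 went from 11.88 and 11.76 to 11.57 and 11.33 (-0.37 ± 0.13, adjusted p = 0.199). Rfc2, which is on the separate list of other replication genes, went from 11.27 and 11.17 to 10.89 and 10.51 (-0.52 ± 0.15, adjusted p = 0.145). Pcna, the clamp that the loader places on DNA, read 13.42 and 13.34 against 13.08 and 12.70 (-0.49 ± 0.15).

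Pole and Pold1, the catalytic subunits of polymerases epsilon and delta, came closest to the threshold after Rfc3. Pole, which makes the leading strand, read 9.18 and 9.24 in the low and 8.78 and 8.58 in the high switching subclones (-0.53 ± 0.12, limma adjusted p = 0.0751). Pold1, which makes the lagging strand, read 10.51 and 10.28 against 9.86 and 9.87 (-0.53 ± 0.12, adjusted p = 0.0809). On this Pold1 probe set H23 was as low as H27. The second Pold1 probe set gave -0.34, with H23 at 9.34 and H27 lower, at 9.03. Prim1, the primase subunit that starts each fragment, read 11.68 and 11.67 against 11.47 and 11.16 (-0.36 ± 0.14), and Fen1, the flap nuclease that trims fragments, 11.80 and 11.52 against 11.30 and 11.38 (-0.32 ± 0.13). Pola1, the catalytic subunit of polymerase alpha, which works with primase, and Lig1, the ligase that seals fragments, overlapped between classes, with differences of -0.07 ± 0.13 and -0.01 ± 0.15.

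All 4 genes of nucleotide supply read lower in both high switching subclones, and none passed. Of all genes 24.9% did so, and of those with a mean of at least 7, 37.1%. Rrm1 and Rrm2, the subunits of ribonucleotide reductase, gave -0.45 ± 0.12 and -0.48 ± 0.14. Rrm1 read 12.19 and 12.16 against 11.83 and 11.62, and Rrm2 12.27 and 12.13 against 11.88 and 11.56. Tk1, the thymidine salvage kinase, had the second largest difference of the 34 genes, -0.77 ± 0.24 (limma adjusted p = 0.156), at a low level: 6.75 and 7.19 against 6.50 and 5.90. Its low switching subclones differed by 0.44 and its high switching subclones by -0.60, so the gaps within the classes were not much smaller than the difference. Tyms, thymidylate synthase, read between 5.25 and 6.06 (-0.42 ± 0.19), near the level of the median probe set, and its probe sets are too dim to rest a result on. Its other 3 probe sets were between 3.74 and 4.38. A probe set that the platform assigns to both Tyms and its pseudogene was not counted.

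Of the genes for S phase entry and chromatin assembly, Chaf1b, a subunit of the CAF-1 histone chaperone, read 8.91 and 8.83 in the low switching subclones, 8.57 in H23 and 7.94 in H27 (-0.61 ± 0.21, limma adjusted p = 0.191). E2f1, an activator of this gene set, read 9.23 and 8.95 against 8.84 and 8.50 (-0.42 ± 0.16), and Slbp, which binds histone mRNA in S phase, read 12.13 and 11.93 against 11.83 and 11.42 (-0.41 ± 0.17). The classes of these 3 did not overlap. Of all genes, 24.9% were lower without overlap, and of those with a mean of at least 7, 37.1%. The cyclins that drive entry into S phase showed no such order. Ccne1 read 10.10 and 9.56 in L25 and L27 and 10.02 and 9.70 in H23 and H27, so that it varied more within a class than between classes (0.03 ± 0.21). Ccne2 was between 8.38 and 8.74 (0.17 ± 0.14).

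Probe sets of a gene gave like differences where they were bright. Of the 17 genes with several probe sets of mean 7 or more, all 17 had the same sign on each, and the largest gap between probe sets was 0.21 (Mcm4). Of the 22 probe sets with a mean under 7, some had a difference near 0 where their gene's brighter probe set did not, as for Chaf1b (-0.05) and Orc1 (0.01).

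The subclones of the high switching class differed from each other on these genes more than those of the low switching class. H27 was below H23 for 32 of 34 genes, with a median of -0.32 on the log2 scale, and the range was -0.69 (Orc1) to 0.08 (Fen1). The exceptions, Fen1 and Pold1 (0.01), were lower in H27 on their second probe sets (-0.21 and -0.31). Among all genes 52.8% were lower in H27 than in H23, and the median was -0.01; among genes with a mean of at least 7 these were 56.3% and -0.04. H27 was at least 1.5-fold below H23 for 3 genes, Orc1, Chaf1b (-0.63) and Tk1 (-0.60), where 1.60% of all genes were that much lower, and for 0 in the other direction (0.918% of all genes). L27 was below L25 for 24 of 34 genes (50.4% of all genes, 46.6% at a mean of 7 or more), and the median was -0.07; 0 genes were at least 1.5-fold lower or higher (0.885% and 1.36% of all genes). H27 was the lowest of the 4 subclones for 26 genes and the highest for 0; it was the lowest for 26.4% of all genes and for 32.7% of those with a mean of at least 7. H23 taken by itself lay below both low switching subclones for 21 of 34 genes (35.5% of all genes and 44.5% of those with a mean of at least 7), and H27 taken by itself for 28 (37.7% and 49.2%); both counts use the same low switching arrays. With 1 array a subclone there is no test of these differences.

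**Figure D3:**
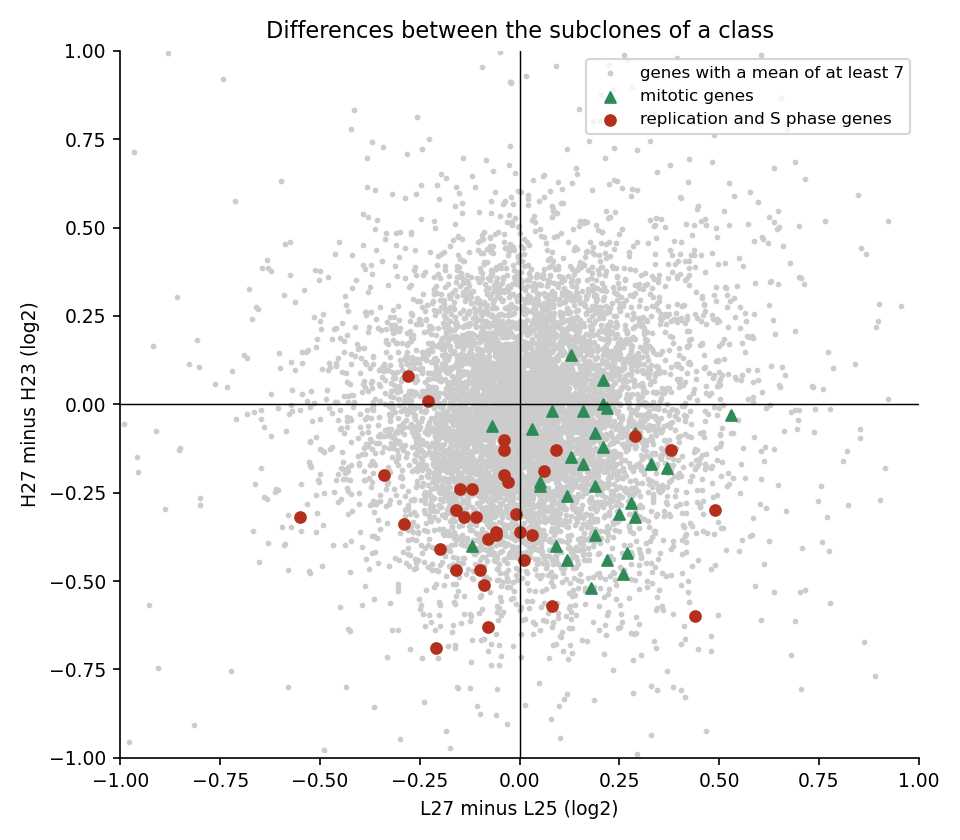
Difference between the subclones of each class (log2), L27 minus L25 on the horizontal and H27 minus H23 on the vertical axis; grey points are genes with a mean of at least 7, red circles the 34 replication and S phase genes and green triangles 31 mitotic genes. The replication genes lie mostly below 0 on the vertical axis (32 of 34), and the mitotic genes also lie to the right of 0 (29 of 31).

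Differences of the 34 genes varied with the chromosome they lie on, in the same direction as other genes there on some chromosomes and not on others. All 6 on chromosome 5 (Mcm7, Pole, Rfc3, Rfc5, Slbp and the dim Tyms) were lower without overlap (24.9% of all genes), with a median of -0.53. The 5 on chromosome 8 (Cdt1, Gins2, Gins3, Mcm5 and Orc6) had differences of 0.00 to 0.42 and a median of 0.18. The 3 genes higher without overlap on the probe set that stands for them, Gins2, Gins3 and Orc6, are all on chromosome 8. On chromosome 5, the other 530 genes of mean 7 or more shared this lean with a median of -0.31, and on chromosome 8 the other 420 had one of 0.24. Mcm2 lies on chromosome 6, where the median was 0.20. Other genes had the opposite sign to the median of their chromosome. Rrm2 (-0.48) on chromosome 12 (0.13), Fen1 (-0.32) on chromosome 19 (0.09) and Pola1 (-0.07) on X (0.10) were below 0. Ccne2 (0.17) on chromosome 4 (-0.13) and Ccne1 (0.03) on chromosome 7 (-0.18) were above 0. The intervals of Pola1 (-0.39 to 0.25), Ccne2 (-0.16 to 0.50) and Ccne1 (-0.48 to 0.54) cross 0. Close to Rrm2 the sign was the same, with a median of -0.32 over the 20 neighbouring genes on each side. Around Fen1 and Pola1 that median was 0.03 and 0.16. The chromosomes named here were singled out after their values were seen. When the median of the 20 neighbouring genes on each side was subtracted, 29 of the 34 genes were below 0, with a median of -0.23, against 0.04 for all genes and 0.00 for genes with a mean of at least 7. By the same measure chromosome 8 had 4 of 5 below 0 (median -0.07) and chromosome 5 had 6 of 6 (median -0.26), Mcm2 went from 0.06 to -0.29, and Rfc3 from -1.07 to -0.82 (limma adjusted p = 0.0648, no longer past the threshold). Without both chromosomes, the other 23 genes had a median of -0.37.

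**Figure D4:**
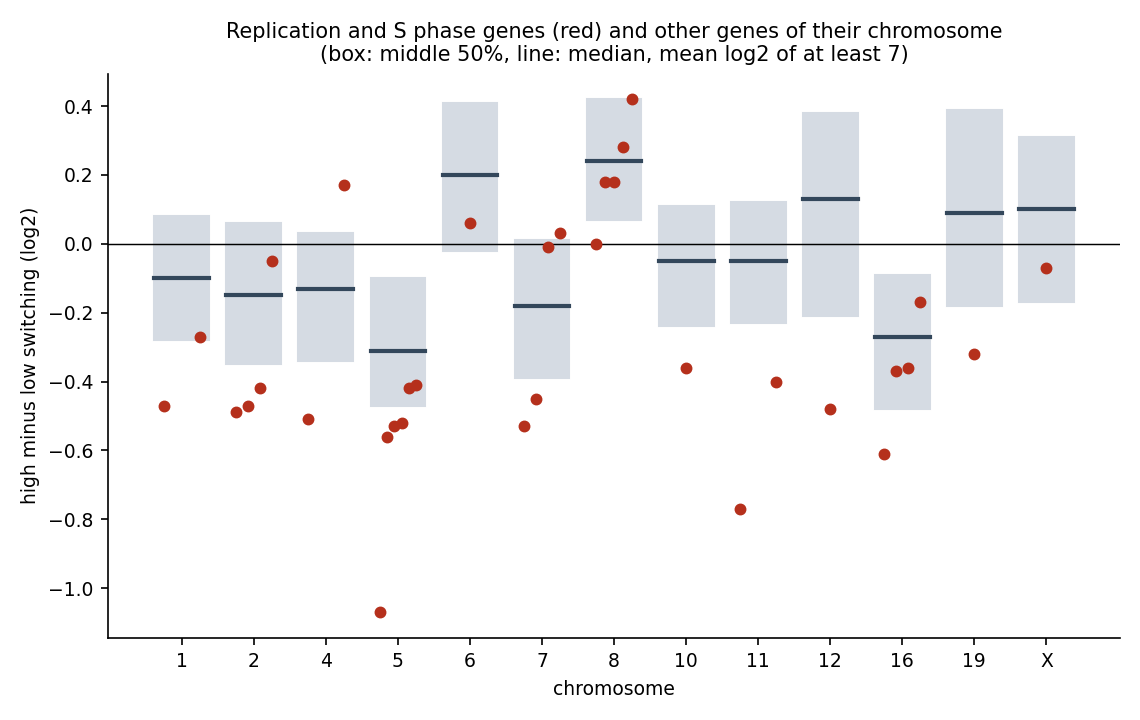
High minus low switching difference (log2) of the 34 genes (red points), by chromosome, over the middle 50% (box) and median (line) of the other genes of that chromosome with a mean log2 of at least 7. The points of chromosome 5 all lie below 0 and those of chromosome 8 all at 0 or above, as do the medians of the other genes there.

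Other genes of the replication machinery, taken from a separate list, had a median difference of -0.13. Of 53 measured, 37 had a difference below 0 (48.1% of all genes and 55.2% of those with a mean of at least 7). Both high switching arrays were below both low ones for 27 (24.9% and 37.1%) and above them for 7 (26.5% and 28.2%). Whether this list differs from other genes or from the 34 was not tested. Among them 2 fell and 0 rose (limma, adjusted over all probe sets), where 2.78% of all genes fell and 2.04% rose. The genes that fell were Rfc1, the large subunit of the clamp loader, and Mcm9, a relative of the ring subunits that works in repair. Rfc1 read 9.98 and 10.11 in the low and 9.34 and 9.23 in the high switching subclones (-0.76 ± 0.11, limma adjusted p = 0.0278), and its second called probe set also gave -0.76. Like Rfc3 it lies on chromosome 5, and with neighbouring genes subtracted its difference was -0.32 (adjusted p = 0.143), no longer past the threshold. Mcm9 read 6.42 and 6.41 against 5.46 and 5.32 (-1.03 ± 0.11, limma adjusted p = 0.0127). Only 1 of the 4 Mcm9 probe sets passed, and its level was low. Leaving out any 1 array ended the call of Rfc1 (-0.70 to -0.82), and that of Mcm9 held in 1 of 4 such fits and with neighbours subtracted (-0.92, adjusted p = 0.0181). Probe sets that do not stand for their gene also passed for Dbf4 (-0.74) and Orc4 (-0.76), both dim, and for the maintenance methyltransferase Dnmt1 (0.69 and 0.71). The calls of Dbf4, Orc4 and the Dnmt1 probe set at 0.71 ended when any 1 array was left out, and with neighbours subtracted that Dnmt1 value was 0.29.

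Regulators of S phase entry moved in both directions. Of 22 measured, 1 fell and 3 rose at the gene level (2.78% and 2.04% of all genes), with a median of -0.10. Skp2, the ubiquitin ligase subunit that removes the inhibitor p27, fell on 5 of 6 probe sets, by 0.80 (SE 0.12) on the one that stands for it, from 9.34 and 9.27 to 8.62 and 8.40 (limma adjusted p = 0.0304). Cdkn1a, the CDK inhibitor p21, rose from 6.60 and 6.93 to 8.70 and 8.03 (1.60 ± 0.24, adjusted p = 0.0278). Rb1, the retinoblastoma protein that holds E2F back, rose from 9.81 and 10.28 to 11.04 and 11.56 (1.26 ± 0.23, limma adjusted p = 0.0431). Only 1 of the 2 Rb1 probe sets passed. Its relative Rbl2 (p130) rose from 8.53 and 8.71 to 9.29 and 9.33 (0.69 ± 0.11, adjusted p = 0.0367). E2f5, an E2F that works with these pocket proteins as a repressor, rose on 2 probe sets (1.55 and 1.21), though not on the one that stands for it (0.39). Rbl1, a relative of Rb1 and Rbl2, read lower, at 10.37 and 10.24 against 9.78 and 9.54 (-0.64 ± 0.13, limma adjusted p = 0.0571). E2f7 (-0.81) and E2f8 (-0.74) were also lower without overlap, and neither these nor Rbl1 passed. Of the 22 genes, 9 were lower and 6 higher without overlap (37.1% and 28.2% of genes with a mean of at least 7). Without any 1 array the calls of Skp2, Rb1 and Rbl2 ended and their sign held; Cdkn1a passed in 1 of 4 such fits (1.26 to 1.93), and E2f5 in 4 of 4. With the hybridization control level as a block, limma kept none of these calls. Its adjusted p was 0.0884 for E2f5, 0.06 for Cdkn1a, 0.111 for Skp2, 0.116 for Rbl2 and 0.156 for Rb1. The calls of Rfc3 (0.125), Rfc1 (0.0963) and Mcm9 (0.0857) ended too. The block is balanced between the classes, so every difference stayed the same. It leaves fewer degrees of freedom, and calls over all probe sets went from 1618 to 152. With neighbouring genes subtracted, Rbl2 (0.33, adjusted p = 0.139) and Rb1 (0.98, 0.0718) also no longer passed, while Skp2 (-0.92, 0.0242), Cdkn1a (1.63, 0.031) and E2f5 (1.07, 0.0328) did.

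Mitotic genes were split between directions. Of 31 measured, 15 were below and 16 above 0, with a median of 0.00, and 6 were lower and 7 higher without overlap (37.1% and 28.2% of genes with a mean of at least 7). At the gene level limma called 0, where 2.78% of all genes fell and 2.04% rose. An unadjusted limma p under 0.05 was reached by 2 in the lower and 4 in the higher direction. Among genes with a mean of at least 7 the shares were 21.0% and 16.0%. Of Cenpe, the kinetochore motor gene, 1 probe set rose (1.06). The mitotic genes differed within both classes, with medians of 0.19 for L27 minus L25 (29 of 31 higher in L27) and -0.18 for H27 minus H23 (28 of 31 lower in H27). The hybridization controls, spiked in after labelling, were brighter on L25 and H27 (11.32 and 11.23) than on L27 and H23 (10.72 and 10.79), and these are the arrays on which mitotic genes read lower within each class. The poly-A controls split the arrays the same way, at 8.15 and 8.17 on L25 and H27 and 7.80 and 7.77 on L27 and H23, as did the actin 3' minus 5' difference, at 0.29 and 0.33 against 0.23 and 0.22. The part of these in the differences within each class, the lower H27 values of the replication genes included, was not tested. Of the replication genes, L25 and H27 held opposite ends, with median deviations from each gene's mean of 0.22 and -0.33. These deviations include the class difference, so they do not describe the gaps within a class alone. Whether the mitotic and replication lists differ was not tested.

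**Figure D5:**
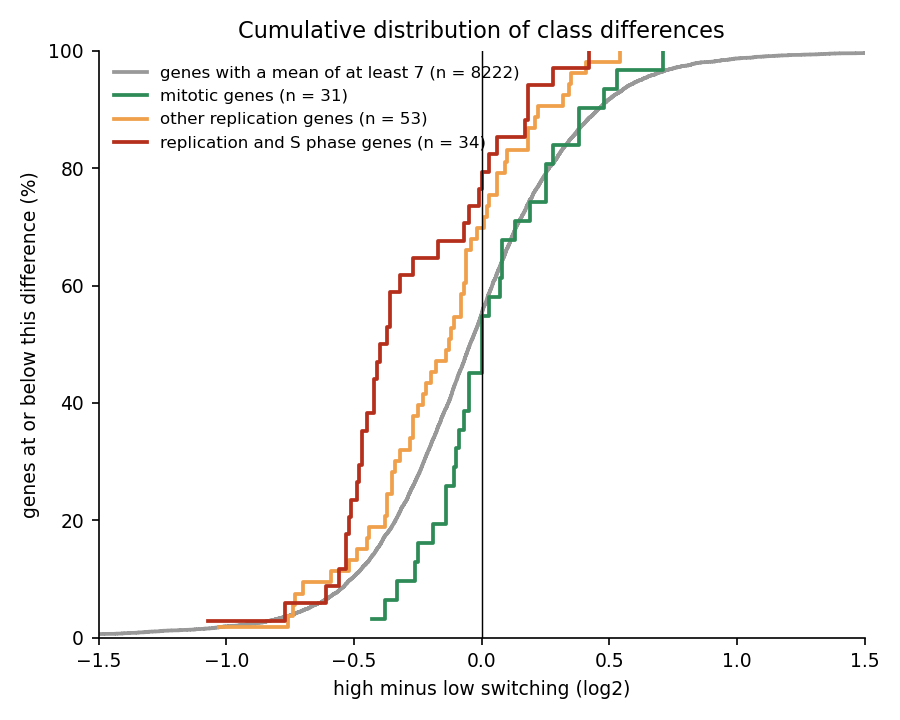
Share of genes (%) at or below each high minus low switching difference (log2), for the 34 replication and S phase genes (red), 53 other replication genes (orange), 31 mitotic genes (green) and the 8222 genes with a mean of at least 7 (grey). The red line lies to the left, with a median of -0.39, and the median of the green line is 0.00.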

How the data were processed

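Biotin-labelled total RNA of 4 subclones was run on Affymetrix arrays, 1 per subclone. The authors deposited linear intensities. RMA, named without a version in the submitters' processing notes, normalizes between arrays and compresses differences of dim probe sets. The values were transformed to log2. All probe sets other than 64 controls entered the fit (45037 of 45101), dim ones included. Platform annotation from 2016 had 1 symbol for 34945 probe sets, several for 932 and none for 9160; symbols were carried to a GRCm38.p6 gene table for chromosomes and gene order (34741 matched). No genome build is named in the labels.

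High minus low switching was tested with limma 3.58.1 in R 4.3.3 (lmFit, eBayes, two-sided); p-values were adjusted by Benjamini-Hochberg across the 45037 probe sets, with calls under 0.05; each SE is limma's moderated one, and intervals cover 95%. A permutation of 2 against 2 arrays cannot give a p below 0.333. Each gene was represented by its brightest probe set (mean of 4 arrays). Named genes are those with a probe set past the threshold, no overlap and a difference of at least 0.5, a difference of at least 0.5 within a class, or a place in a described complex; the other listed genes were added for completeness. The genes, lists and alternatives were chosen with earlier results of these data known. On simulated data (10 draws, 200 of 45037 probe sets changed) the test found 0.4% of those set to a log2 change of 0.5, 41.2% at 1 and 96.6% at 2. Alternatives were variance models, filters on dim probe sets, normalizations, other choices of probe set, the level of hybridization controls as a block, subtraction of neighbouring genes and leaving out each array. Figures used matplotlib 3.10.9 in Python 3.11.15.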

Additional observations from a re-analysis of the deposited data

How the results depend on the processing

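The median difference of the 34 genes was below 0 under each of the 15 alternatives run, between -0.53 and -0.21. The lowest and highest values came from leaving out H23 and H27. The variance models and the hybridization control block cannot change a difference, so their median of -0.39 was fixed in advance. Filters on dim probe sets leave the values as they are and can only drop genes. Without chromosomes 5 and 8, a setting added once the data had been seen, the median was -0.37. The 21 genes lower without overlap were 16 to 22 under the filters, normalizations and choices of probe set. The medians within the classes were -0.38 to -0.28 for H27 minus H23 and -0.07 to -0.04 for L27 minus L25. With a gene's probe sets averaged, 2 of the 34 genes passed the limma threshold, both lower, so a gene other than Rfc3 was called there. The count of the genes' probe sets past the threshold, 2, was 1 without probe sets that may match several transcripts (names ending in _x_at, _s_at or _a_at), which leaves fewer probe sets, 0 with the hybridization control level as a block, 0 with neighbouring genes subtracted, and 0 to 2 when 1 array was left out. Over all probe sets, 1618 passed, against 152 with that block, 976 with neighbouring genes subtracted, 1068 when a gene's probe sets were averaged (fewer features), and 308 to 582 without 1 array. When 1 array was left out, Ccne1 ranged from -0.24 to 0.30, Gins1 from -0.12 to 0.01 and Mcm2 from -0.22 to 0.35, so their directions are not settled. Of 149 values of the 12 called genes under an alternative, 97 kept the call and 52 lost it. Of 213 values of the 17 other genes, which had no call to lose, 4 changed sign. Neither tally takes in the subtraction of neighbouring genes or the averaging of a gene's probe sets. With neighbours subtracted, the calls of Rfc3, Rfc1, Rb1, Rbl2, Dnmt1, Cenpe, Dbf4 and Orc4 ended. Those of Mcm9, Skp2, Cdkn1a and E2f5 held. The variance models, the block and the filters on dim probe sets cannot change a sign. The causes were not tested. With 2 arrays a class, differences of 0.5 were rarely recovered in simulation.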
